A study of Saccharomyces cerevisiae with 8 samples.

Results

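The genes described here encode yeast proteins of the pathways that make sterols, fatty acids and the main phospholipids. They were chosen by pathway and by systematic ORF name, and comprise 34 of the 6212 ORFs on the arrays. No measured value entered this rule, but it was set with earlier results of these data known. The sterol pathway contributes 23 genes, of which 9 belong to the mevalonate pathway, 3 lead from farnesyl pyrophosphate to lanosterol and 11 from lanosterol to ergosterol. Fatty acid synthesis contributes 7 genes and phospholipid synthesis 4. A value on at least 1 array was found for 33 of them, 32 could be tested in each comparison and 31 had values on all 8 arrays.

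Messenger RNA was compared on 2-colour arrays of *Saccharomyces cerevisiae* ORFs, each hybridised with cDNA of a mutant and of wild type (wt) cells, 1 labelled with Cy3 and the other with Cy5. Wild type cells were BY4741, the *ptc6* mutant was BY4741 with *ptc6::kanMX4*, and the *ptc1 ptc6* mutant was BY4741 with *ptc1::NAT* and *ptc6::kanMX4*. *PTC1* and *PTC6* encode type 2C protein phosphatases. All cells carried the auxotrophic markers of BY4741 (in *HIS3*, *LEU2*, *MET15* and *URA3*), were grown at 28 °C in YPD rich medium to exponential phase and were not treated. The labels give 1 genotype for each mutant and no strain or clone names, and a *ptc1* single mutant was not analysed here. Each mutant was measured in 2 biological replicates, and each replicate on 2 arrays with the dyes exchanged. Both arrays of a replicate share their RNA and were averaged, so that n = 2 for each mutant. All values below are log2 ratios of mutant over wt, in which 1 means a 2-fold higher level. Where the value of every array is given, the order is replicate 1 with the mutant in Cy3 and then in Cy5, followed by replicate 2 with the mutant in Cy3 and then in Cy5.

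Ergosterol is the main sterol of fungal membranes. It is built from acetyl-CoA through mevalonate, isopentenyl and farnesyl pyrophosphate, squalene and lanosterol, and the late steps need oxygen and heme. Transcription of many *ERG* genes is known to respond to sterol supply through the activators Upc2 and Ecm22. Fatty acids are also made from acetyl-CoA, by Acc1 and the fatty acid synthase Fas1-Fas2, then desaturated by Ole1 and lengthened by the Elo enzymes. In the phospholipid branch, Ino1 makes inositol phosphate, Cho1 makes phosphatidylserine, and Cho2 and Opi3 methylate phosphatidylethanolamine to phosphatidylcholine. Genes of this branch are known targets of the activators Ino2 and Ino4 and of the repressor Opi1, which respond to inositol and choline.

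The arrays gave a value for 4308 to 5537 ORFs in the *ptc6* set and for 4050 to 4710 in the *ptc1 ptc6* set. The spread over ORFs (SD of the log2 ratios on an array) was 0.24 to 0.33 and 0.42 to 0.54, respectively. The deleted genes were low as labelled: *PTC6* averaged -2.34 ± 0.11 in *ptc6* and -3.94 ± 1.11 in *ptc1 ptc6*, and *PTC1* averaged 0.22 ± 0.26 and -2.56 ± 0.18 (SD, n = 2). *PTC6* in the double mutant had a value on 2 of 4 arrays. Equal amounts of total RNA were compared, so the ratios do not show whether the RNA content of the cells differed.

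Of the 32 lipid synthesis genes tested, *OPI3* passed the test in *ptc1 ptc6* cells, where it rose about 1.90-fold. In *ptc6* cells 0 passed, but the test there called no gene, the deleted *PTC6* included, so this count does not show that the genes were unaltered. No gene of the sterol or fatty acid pathways passed the test in either mutant. *CHO1* and *OPI3* had the highest means in *ptc6* cells, but their replicates differed widely and neither passed the adjusted threshold. Tests were made with limma, on the 4 replicate means, with Benjamini-Hochberg adjustment over all genes and a threshold of 0.05. In *ptc6* no gene at all was called among 4824 tested (0% higher and 0% lower). *PTC6* itself, at -2.34, had an unadjusted p of 0.000292 and an adjusted p of 0.407. Its *ptc6* replicates were at -2.27 and -2.42, but the fit shares 1 spread with *ptc1 ptc6*, where they were at -3.16 and -4.73. With each mutant fitted alone, 10 genes were called in *ptc6*, and 0 of the members. At an unadjusted p under 0.05, 2 of the 32 members, *CHO1* and *OPI3*, were higher and 0 lower, against 4.52% and 3.48% of all genes. In *ptc1 ptc6*, 5.64% of the 4596 genes tested were called higher and 8.49% lower, against 1 and 0 of the 32 members. At an unadjusted p under 0.05, 2 members were higher there (*OPI3* and *ERG4*), against 13.1% of all genes, and 3 were lower (*ERG13*, *ELO2* and *ERG1*), against 20.9%. By the 2-fold rule of the methods, which uses the mean over arrays and no test, 0 of 33 measured members passed in *ptc6*, where 0% of all genes were higher and 0.0549% lower. In *ptc1 ptc6* 0 of 32 passed, where 1.68% of all genes were higher and 0.294% lower.

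**Figure D1:**
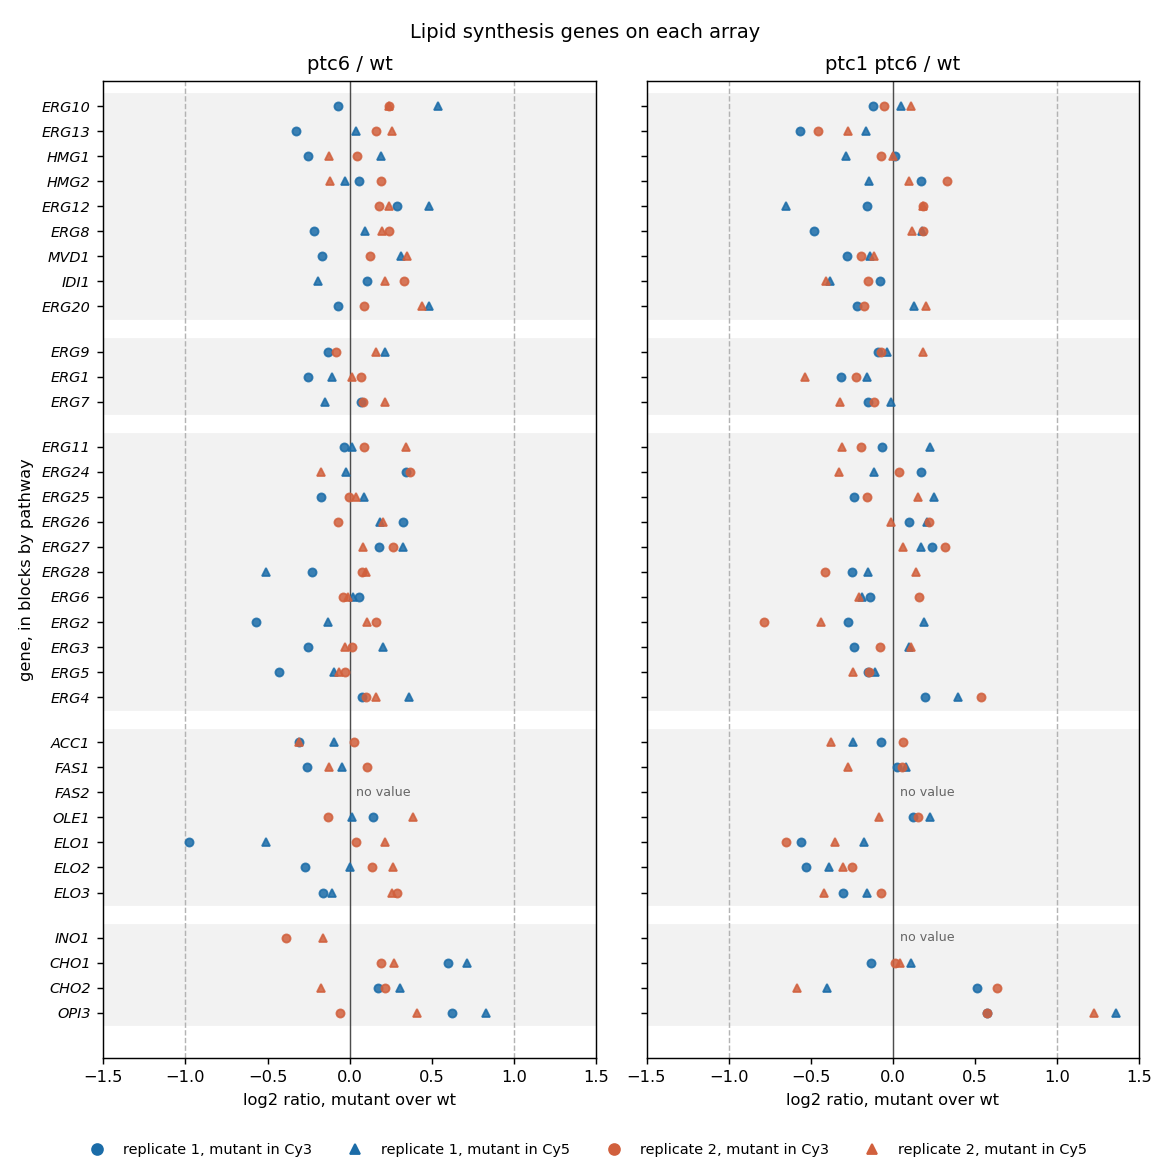
Log2 ratio of mutant over wt (horizontal axis) for each of the 34 lipid synthesis genes on each array, in blocks from top to bottom for the mevalonate pathway, squalene to lanosterol, lanosterol to ergosterol, fatty acids and phospholipids. Colours mark the biological replicate, circles and triangles the dye of the mutant, and dashed lines the 2-fold limits. Only *OPI3* in *ptc1 ptc6* has points beyond a 2-fold limit, on the 2 arrays with the mutant in Cy5 (1.356 and 1.221).

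For the 32 members the 95% interval (not adjusted for the number of genes) of a mean reached 0.26 to either side (median; 0.24 to 0.48 over the genes). The whole interval lay within the 2-fold limits for 32 of 32 genes in *ptc6* and for 31 of 32 in *ptc1 ptc6*, *OPI3* being the exception. Intervals inside the limits were not counted over all genes. By the 2-fold rule few genes of any kind passed: 0% higher and 0.0549% lower in *ptc6*, 1.68% and 0.294% in *ptc1 ptc6*. These intervals rest on averaged dye swaps and on a spread shared by both mutants, so they can be narrower than the values of 1 mutant. *ELO1* in *ptc6* had replicates at -0.74 and 0.13 and an interval of 0.48 to either side. *CHO2* in *ptc1 ptc6* counted as inside, with arrays from -0.584 to 0.632. The interval held 0 for 30 and 27 genes, respectively. Calls needed more than an interval clear of 0: *CHO1* in *ptc6* and *ERG4*, *ERG13*, *ELO2* and *ERG1* in *ptc1 ptc6* had such intervals and did not pass after adjustment, nor did *OPI3* in *ptc6*.

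The mevalonate pathway, which supplies isoprenoid units for sterols and other compounds, had a median of 0.11 in *ptc6* (replicates 0.01 and 0.22) and of -0.09 in *ptc1 ptc6* (replicates -0.15 and 0.01). Of its 9 genes 8 had a mean above 0 in *ptc6*, and 8 had a mean below 0 in *ptc1 ptc6*. After each array was centred on its median, these counts were 8 and 5 and the median in *ptc1 ptc6* was -0.03. None passed the test in either mutant. The medians over all measured genes were 0.01 in *ptc6* and -0.04 in *ptc1 ptc6*.

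*HMG1* (YML075C) encodes the major HMG-CoA reductase, the main control point of the pathway. It measured -0.255, 0.192, 0.043 and -0.126 on the *ptc6* arrays and 0.011, -0.285, -0.070 and 0.000 on the *ptc1 ptc6* arrays. Its values lay on both sides of 0 in both sets, and the means were -0.04 ± 0.01 and -0.09 ± 0.07 (SD, n = 2). *HMG2*, the second reductase gene, averaged 0.02 ± 0.01 and 0.11 ± 0.14.

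*ERG13* (YML126C) encodes HMG-CoA synthase, which acts just before the reductases. It measured -0.324, 0.038, 0.162 and 0.256 in *ptc6*, and -0.567, -0.162, -0.459 and -0.271 in *ptc1 ptc6*. It was below 0 on all 4 arrays of the double mutant, with a mean of -0.36 (both replicates at this value), but did not pass the adjusted threshold (limma, adjusted p = 0.0915). The mean in *ptc6* was 0.03 ± 0.25.

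*ERG12* (YMR208W) encodes mevalonate kinase and was the highest sterol gene in *ptc6*. It measured 0.285, 0.482, 0.176 and 0.240 there, and -0.157, -0.653, 0.181 and 0.180 in *ptc1 ptc6*. All *ptc6* arrays were above 0, with a mean of 0.30 ± 0.12 (limma, adjusted p = 0.644). In *ptc1 ptc6* the replicates fell on opposite sides of 0, and the mean was -0.11 ± 0.41. Of the other genes of this stage, *ERG10* (acetoacetyl-CoA thiolase) and *ERG20* (farnesyl pyrophosphate synthase) averaged 0.24 ± 0.01 and 0.23 ± 0.04 in *ptc6*. *IDI1* (isopentenyl pyrophosphate isomerase) and *MVD1* (mevalonate pyrophosphate decarboxylase) averaged -0.26 ± 0.03 and -0.18 ± 0.04 in *ptc1 ptc6*, where both were below 0 on all 4 arrays. *ERG8* (phosphomevalonate kinase) averaged 0.08 ± 0.20 and 0.00 ± 0.21.

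The 3 genes that lead to lanosterol had medians of 0.04 in *ptc6* and -0.15 in *ptc1 ptc6*. *ERG1* (YGR175C), which encodes squalene epoxidase, the target of the antifungal terbinafine, measured -0.252, -0.105, 0.069 and 0.013 in *ptc6* and -0.317, -0.158, -0.223 and -0.538 in *ptc1 ptc6*. Its *ptc6* replicates lay on opposite sides of 0, and all 4 arrays of the double mutant lay below 0. The mean in *ptc1 ptc6* was -0.31 ± 0.10 (limma, adjusted p = 0.110). *ERG7* (lanosterol synthase) was also below 0 on all 4 arrays of the double mutant, with a mean of -0.15 ± 0.10. *ERG9* (squalene synthase) averaged 0.04 and 0.00 in the mutants.

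The late pathway from lanosterol to ergosterol had medians close to those of all genes, 0.01 in *ptc6* and -0.06 in *ptc1 ptc6*. None of its 11 genes passed the test. The means ranged from -0.16 to 0.21 in *ptc6* and from -0.33 (*ERG2*) to 0.42 (*ERG4*) in *ptc1 ptc6*. *ERG11* (YHR007C), the lanosterol demethylase inhibited by azole antifungals, measured -0.035, 0.013, 0.088 and 0.345 in *ptc6* and -0.069, 0.225, -0.194 and -0.309 in *ptc1 ptc6*. The values spread around 0 in both sets. *ERG25* (YGR060W), a sterol methyl oxidase, measured -0.177, 0.088, -0.007 and 0.038 in *ptc6* and -0.238, 0.252, -0.157 and 0.154 in *ptc1 ptc6*. In both sets the sign of *ERG25* went with the dye, and the means were -0.01 ± 0.04 and 0.00 ± 0.01.

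*ERG3* (YLR056W), a sterol desaturase, measured -0.253, 0.203, 0.012 and -0.030 in *ptc6* and -0.235, 0.098, -0.078 and 0.108 in *ptc1 ptc6*. It averaged -0.02 ± 0.01 and -0.03 ± 0.06. *ERG27* (YLR100W), a sterol keto reductase, measured 0.180, 0.323, 0.265 and 0.080 in *ptc6* and 0.240, 0.169, 0.316 and 0.058 in *ptc1 ptc6*. It was the only member above 0 on all 8 arrays, with means of 0.21 ± 0.06 and 0.20 ± 0.01, neither past the adjusted threshold.

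*ERG4* (YGL012W) encodes the reductase of the last step to ergosterol. It measured 0.076, 0.358, 0.10 and 0.160 in *ptc6*. In *ptc1 ptc6* it measured 0.192, 0.398 and 0.536 on 3 arrays and had no value on the fourth, replicate 2 with the mutant in Cy5. Each of the 7 values was above 0. The mean in *ptc1 ptc6*, in which the second replicate is a single array, was 0.42 ± 0.17, just short of the threshold (limma, adjusted p = 0.0554). It did not pass after scaling to equal spread or with Cy3 arrays only (limma, adjusted p = 0.131 and 0.139). Nor did it pass with a block for the replicate number or with each mutant fitted alone (limma, adjusted p = 0.0525 and 0.0595). It passed when each array was centred on its median and when all 8 arrays were fitted with the replicate as a random effect. In that fit the correlation within replicates was estimated at -0.0945, so both arrays of a dye swap counted as if they were separate samples. *ERG2* (sterol isomerase) had the lowest mean of the late genes in the double mutant, -0.33 ± 0.40, with replicates at -0.04 and -0.61. *ERG5* (a desaturase) was below 0 on all 8 arrays and averaged -0.16 ± 0.16 and -0.16 ± 0.05. The other late genes, *ERG24*, *ERG26*, *ERG28* and *ERG6*, lay between -0.17 and 0.16 in both mutants.

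**Figure D2:**
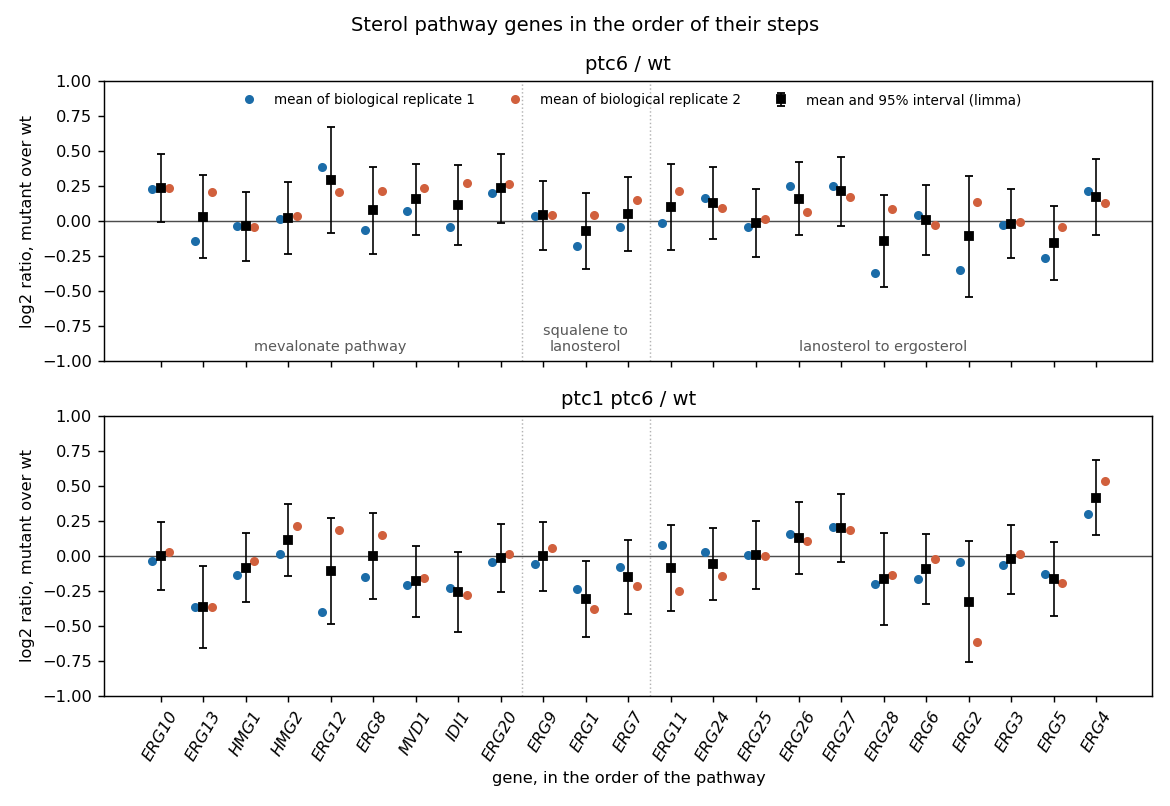
Log2 ratio of mutant over wt (vertical axis) for the 23 sterol genes in the order of their steps. Coloured points are the means of the 2 biological replicates, squares the mean of both and bars the 95% interval of the limma fit. Most intervals cross 0. In *ptc1 ptc6* those of *ERG13*, *ERG1* and *ERG4* do not, but none of the 3 passed the threshold after adjustment.

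Fatty acid genes had a median of -0.03 in *ptc6* (replicates -0.15 and 0.13) and of -0.20 in *ptc1 ptc6* (replicates -0.19 and -0.20), where 5 of the 6 measured genes had a mean below 0. None of the 6 passed the test. *FAS2* (YPL231W), the alpha subunit of fatty acid synthase, had no value on any array. *FAS1* (YKL182W), the beta subunit, measured -0.262, -0.048, 0.107 and -0.126 in *ptc6* and 0.023, 0.079, 0.053 and -0.274 in *ptc1 ptc6*, with means of -0.08 ± 0.10 and -0.03 ± 0.11. *ACC1* (YNR016C), the acetyl-CoA carboxylase that commits carbon to fatty acids, measured -0.310, -0.097, 0.027 and -0.306 in *ptc6* and -0.070, -0.242, 0.059 and -0.377 in *ptc1 ptc6*. *ACC1* was below 0 on 3 of 4 arrays in each set, and its means were -0.17 ± 0.05 and -0.16 ± 0.00. *OLE1* (YGL055W), the only yeast fatty acid desaturase, measured 0.141, 0.015, -0.131 and 0.388 in *ptc6* and 0.120, 0.228, 0.152 and -0.087 in *ptc1 ptc6*. It averaged 0.10 in both mutants, with replicate SDs of 0.04 and 0.10.

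The elongase genes had the lowest means of the fatty acid genes in *ptc1 ptc6*. *ELO1* (YJL196C), which lengthens medium-chain fatty acids, measured -0.975, -0.507, 0.036 and 0.215 in *ptc6* and -0.557, -0.174, -0.654 and -0.354 in *ptc1 ptc6*. In *ptc6* both arrays of replicate 1 were low and both of replicate 2 lay above 0, so that the mean of -0.31 had an SD of 0.61. In *ptc1 ptc6* all 4 arrays were below 0, with a mean of -0.43 ± 0.10 that did not pass (limma, adjusted p = 0.182). *ELO2* (YCR034W), which with *ELO3* makes the very long chains of sphingolipids, measured -0.273, 0.000, 0.134 and 0.266 in *ptc6* and -0.529, -0.390, -0.248 and -0.306 in *ptc1 ptc6*. The arrays of *ELO2* did not overlap between the mutants except for the lowest *ptc6* value, a separation that was not counted over all genes. Of all genes tested for a difference, 2665 of 4361 were also lower in *ptc1 ptc6*. The difference of *ELO2* between the mutants was not called (limma, adjusted p = 0.224). Its mean in *ptc1 ptc6* was -0.37 ± 0.13 (limma, adjusted p = 0.0955). *ELO3* averaged 0.07 ± 0.29 in *ptc6* and -0.24 ± 0.01 in *ptc1 ptc6*.

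Phospholipid genes held the member that passed the test. *OPI3* (YJR073C), which encodes the phospholipid methyltransferase of the last steps to phosphatidylcholine, measured 0.572, 1.356, 0.570 and 1.221 in *ptc1 ptc6*. All 4 arrays were above 0, and in both replicates the array with the mutant in Cy5 was the higher (means 1.29 in Cy5 and 0.57 in Cy3). The replicate means were 0.96 and 0.90, and the overall mean was 0.93 ± 0.05 (95% interval 0.57 to 1.29; limma, adjusted p = 0.0270). It ranked 97 of 4754 genes by its mean. With only the Cy3 arrays the mean of 0.57 was not past the threshold (limma, adjusted p = 0.0823), nor was the mean of 0.82 after the arrays were scaled to equal spread (adjusted p = 0.121). The part of the dye in this value was not tested beyond these fits.

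In *ptc6*, *OPI3* measured 0.625, 0.832, -0.056 and 0.410. Replicate 1 was high on both arrays and replicate 2 on 1 of them, and the mean of 0.45 ± 0.39 ranked 44 of 5461 genes (limma, unadjusted p = 0.0210, adjusted p = 0.602). *CHO1* (YER026C), phosphatidylserine synthase, measured 0.597, 0.711, 0.193 and 0.268 in *ptc6* and -0.131, 0.108, 0.010 and 0.042 in *ptc1 ptc6*. Every *ptc6* array of *CHO1* lay above every *ptc1 ptc6* array, a separation that was not counted over all genes. Genes in general also leaned this way, with 2665 of 4361 differences negative (median -0.09). The difference of *CHO1* between the mutants was not called (limma, adjusted p = 0.210). Its mean in *ptc6* was 0.44 ± 0.30, rank 49 of 5461 (limma, unadjusted p = 0.0134, adjusted p = 0.602), and in *ptc1 ptc6* 0.01 ± 0.03.

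*CHO2* (YGR157W) catalyses the first methylation of phosphatidylethanolamine, before Opi3. It measured 0.175, 0.306, 0.215 and -0.177 in *ptc6* and 0.513, -0.402, 0.632 and -0.584 in *ptc1 ptc6*. In the double mutant the sign followed the dye in both replicates, with means of 0.57 in Cy3 and -0.49 in Cy5, and the mean of 0.04 ± 0.02 describes none of the arrays. *INO1* (YJL153C), inositol phosphate synthase, had no value on any *ptc1 ptc6* array and on neither array of *ptc6* replicate 1. It measured -0.388 and -0.164 in *ptc6* replicate 2 and could not be tested. The 4 phospholipid genes had a median of 0.29 in *ptc6*, with 0.65 in replicate 1, which lacks *INO1*, and 0.10 in replicate 2. The 3 measured in *ptc1 ptc6* had a median of 0.04 (replicates 0.06 and 0.03).

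**Figure D3:**
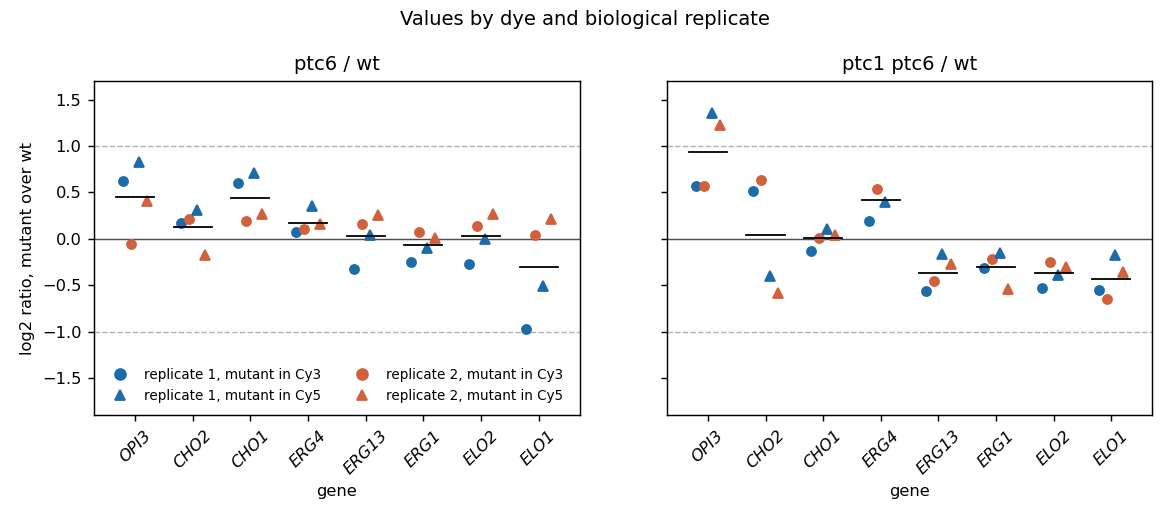
Log2 ratio of mutant over wt (vertical axis) for 8 genes, with a point for each array (colour, biological replicate; circle or triangle, mutant in Cy3 or Cy5), a bar at the mean of the replicate means and dashed lines at the 2-fold limits. In *ptc1 ptc6*, *OPI3* sits at 0.57 in Cy3 and near 1.29 in Cy5, *CHO2* changes sign with the dye, and *ELO1* in *ptc6* changes sign with the replicate.

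The signs across arrays show how far single values can be read. In *ptc6*, 4 of the 32 genes with all 4 values were above 0 on every array (*CHO1*, *ERG4*, *ERG27* and *ERG12*; 13.8% of all genes) and 1 was below 0 on every array (*ERG5*; 7.14%). The sign followed the biological replicate for 6 (*ERG28*, *ERG1*, *ELO1*, *ELO3*, *ERG6* and *ERG2*; 16.2% of all genes) and the dye for 4 (*ERG25*, *ERG9*, *HMG2* and *ERG24*; 7.69%). Over the members the median per array was -0.10 and 0.03 on the arrays of replicate 1 and 0.09 and 0.16 on those of replicate 2, beside -0.01, 0.01, 0.02 and 0.03 over all ORFs.

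In *ptc1 ptc6*, 9 of 31 genes were below 0 on every array (*ELO2*, *ERG1*, *ERG7*, *ELO1*, *ELO3*, *ERG13*, *ERG5*, *MVD1* and *IDI1*), close to the 29.9% of all genes. Only *OPI3* and *ERG27* were above 0 on every array, where 15.6% of all genes were. The sign followed the dye for 6 genes (*ERG25*, *CHO2*, *ERG20*, *ERG3*, *ERG24* and *ERG10*; 18.3% of all genes) and the replicate for 1 (*ERG12*; 3.36%). These shares describe the arrays and were not tested.

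The pathways were then compared between the mutants. The median of the measured members was 0.05 in *ptc6* (22 of 33 measured above 0) and -0.07 in *ptc1 ptc6* (23 of 32 below 0). The 23 sterol genes together had medians of 0.05 (16 above and 7 below 0) and -0.09 (5 above and 18 below), where 2858 of 5461 genes were above 0 in *ptc6* and 2697 of 4754 below 0 in *ptc1 ptc6*. The sterol median in *ptc6* was -0.01 in replicate 1 and 0.13 in replicate 2, so its sign rests on replicate 2. After each array was centred on its own median, the sterol median in *ptc1 ptc6* was -0.03, with 10 genes above and 13 below 0. Tested in the same fit, the difference of *ptc1 ptc6* minus *ptc6* was called for 0 of the 32 members (limma; also 0 at an unadjusted p under 0.05). Of the 4361 genes tested for a difference, 0.161% were called higher and 0.0459% lower, and at an unadjusted p under 0.05 the shares were 7.82% and 16.5%. The median difference was -0.10 for the members (26 of 32 negative) and -0.09 for all genes (2665 of 4361 negative). Both sets were hybridised separately, and a difference between sets cannot be told apart from a difference between the strains in this contrast.

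Single genes differed by at most 0.48. *OPI3* was higher in *ptc1 ptc6* by 0.48 (95% interval -0.03 to 0.98; limma, adjusted p = 0.223). *CHO1* differed by -0.435 (95% interval -0.88 to 0.01; adjusted p = 0.210), and *ERG12*, *ELO2* and *ERG13* by -0.41, -0.40 and -0.40. The mevalonate genes had a median difference of -0.25, with 8 of 9 negative, and the late sterol genes one of -0.03, with 9 of 11 negative. The interval of the difference reached 0.37 to either side (median over genes) and held 0 for 32 of 32 genes, and lay within the 2-fold limits for 32 of 32. These interval counts were not made over all genes.

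**Figure D4:**
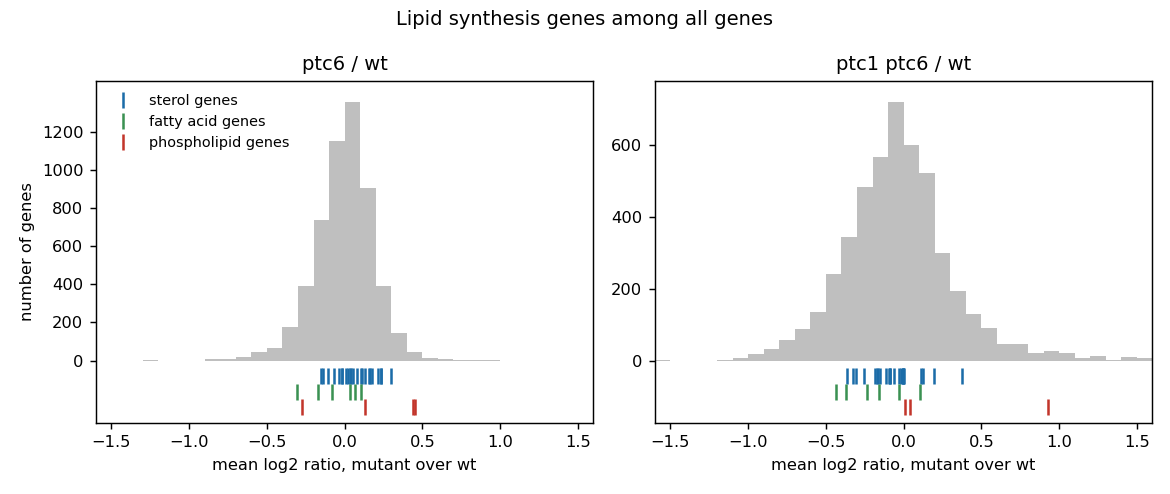
Number of genes (vertical axis) by mean log2 ratio over arrays (horizontal axis; grey bars, all genes with values on at least 2 arrays), with ticks below for the sterol, fatty acid and phospholipid genes. The members lie inside the bulk of all genes except for *OPI3* at 0.93 in *ptc1 ptc6* and *OPI3* and *CHO1* at 0.45 and 0.44 in *ptc6*, and 1 *ptc6* gene and 25 *ptc1 ptc6* genes fall outside the axis.

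Genes that serve these pathways were examined in the same fits, as 9 further lists with 91 genes (regulators, electron donors, sterol transport and esters, other phospholipid and fatty acid genes, sphingolipids, heme, acetyl-CoA supply and fatty acid breakdown). In *ptc6*, 0 of the 72 tested were called and 3 had an unadjusted p under 0.05, as had 386 of all 4824 genes. In *ptc1 ptc6*, 1 of 67 was called higher and 3 lower, beside 5.64% and 8.49% of all genes, and 15 had an unadjusted p under 0.05, as had 1563 of all 4596. *ALD6* (YPL061W), a cytosolic aldehyde dehydrogenase that provides acetate for acetyl-CoA, measured -1.280, -0.779, -1.334 and -0.958 and averaged -1.09 ± 0.08 (limma, adjusted p = 0.0241, and 0.0959 after scaling to equal spread). All its arrays were low, and it was also below 0 on the *ptc6* arrays (-1.068, -0.286, -0.206 and -0.168), where the mean of -0.43 ± 0.35 did not pass.

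The heme enzymes *HEM3* (YDL205C) and *HEM13* (YDR044W) also fell. *HEM3*, porphobilinogen deaminase, measured -0.610, -0.513, -0.492 and -0.524 (mean -0.53 ± 0.04; limma, adjusted p = 0.0317). *HEM13*, coproporphyrinogen oxidase, measured -0.670, -0.211, -0.518 and -0.316 (mean -0.43 ± 0.02; adjusted p = 0.0446). In *ptc6* they averaged 0.04 ± 0.13 and 0.03 ± 0.11. The 8 heme genes had medians of 0.02 in *ptc6* and -0.23 in *ptc1 ptc6*, and the other 6 were not called. *SUR1* (YPL057C), needed for mannosylation of inositol phosphoceramide, rose in *ptc1 ptc6*, with 0.489, 0.459, 0.530 and 0.553 (mean 0.51 ± 0.05; limma, adjusted p = 0.0399). It averaged -0.19 ± 0.21 in *ptc6*. *HEM3*, *HEM13* and *SUR1* were each past the threshold in 10, 8 and 9 of the 13 alternative fits, and all 3 lost the call after scaling to equal spread (adjusted p = 0.131, 0.156 and 0.142) and without either *ptc1 ptc6* replicate. For the difference between the mutants, 0 of 66 genes of these lists were called (13 at an unadjusted p under 0.05, beside 1060 of all 4361).

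By the 2-fold rule, 0 of the 78 measured genes of these lists passed in *ptc6* and 2 of 70 in *ptc1 ptc6*, both lower, beside 0.0549% and 0.294% of all genes lower. Besides *ALD6* this was *CYB5* (YNL111C), a cytochrome that donates electrons to sterol and fatty acid enzymes, named here after its values were seen. It had values only in replicate 2 (-1.049 and -1.146) and was not tested. Of the 13 lipid regulators 12 could be tested in *ptc6* and 11 in *ptc1 ptc6*, among them *ECM22*, *INO2*, *INO4* and *OPI1*, and 0 were called in either mutant. *UPC2* had a value on 1 *ptc6* array only and was tested in neither mutant.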

How the data were processed

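The deposited table holds log2 ratios of mutant over wt per ORF and array. Per the labels and the methods, the authors filtered spots by size and brightness after GenePix Pro quantification and pre-processed the ratios with GEPAS. How they normalised within arrays is not given in the sources used here. The base 2 and the direction were read from the methods and from the deleted genes, and the dye-swapped arrays already ran the same way. Single-channel signals were not analysed here, and the number of arrays limits the precision. Symbols came from the RefSeq gene table of assembly GCF_000146045.2, matched by systematic name (5662 of 6212). The table names no genome build, so no positions are given.

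The mean of each dye swap entered a linear model (limma 3.58.1 under R 4.3.3, with moderated statistics from eBayes) that had a mean for each mutant and a shared spread. A gene was tested if both replicates and at least 2 arrays of a mutant had values. The p-values are two-sided and test a mean, or the difference of the means, against no change. Their error rests on the replicate spread within both mutants, each with 2 replicates, and on the moderation over genes. The scripts were tested on simulated data. Alternatives were median centring, equal spread, values on all arrays, single dyes, leaving out replicates, a random effect of replicate, replicate blocks, separate fits and other fold thresholds. Array values are printed for members that were called, were among the 3 highest or lowest in a mutant or were on a fixed list of pathway landmarks (19 genes). Called genes of the other lists are named. Members and lists were chosen with earlier results of these data known. *PIS1* and *ECI1* and promoter motifs were not analysed here.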

Additional observations from a re-analysis of the deposited data

Results flagged for a closer look

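In 67 sets of 4 arrays (the members' values and array totals in each mutant), 3 had a single array apart from the rest, where a 1 in 20 chance would give about 3.35. *ERG8* in *ptc1 ptc6* measured -0.48 on the array of replicate 1 with the mutant in Cy3, and 0.113 to 0.18 on the others. *FAS1* in *ptc1 ptc6* measured -0.274 on the array of replicate 2 with the mutant in Cy5, and 0.023 to 0.079 on the others. The number of ORFs with a value was 4050 on the *ptc1 ptc6* array of replicate 1 with the mutant in Cy3, and 4620 to 4710 on the others.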

How the results depend on the processing

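In *ptc6* and in the difference between the mutants, 0 members were called under every alternative that was run. In *ptc1 ptc6*, the number called was 1 (*OPI3*) and became 2 after centring (*ERG4* and *OPI3*), 0 after scaling to equal spread, 5 with the biological replicate as a random effect over 8 arrays (*ELO2*, *ERG1*, *ERG13*, *ERG4* and *OPI3*), 2 with each mutant fitted alone (*ELO1* and *OPI3*), and 1 to 2 when a biological replicate was left out. *OPI3* there was 0.82 (adjusted p = 0.121) after scaling and 0.57 (adjusted p = 0.0823) with Cy3 arrays only, and its adjusted p ranged from 0.000923 to 0.121 over all alternatives. *CHO2* was past the threshold with Cy3 arrays only (0.57, limma adjusted p = 0.0385), while with Cy5 arrays only it was -0.49. At 2-fold in *ptc1 ptc6*, 1 member passed with Cy5 arrays only and 1 at a 1.5-fold threshold, *OPI3* both times. Passing genes under these 2 settings were not counted over all genes. With each mutant fitted alone, 849 of 4596 genes were called in *ptc1 ptc6* (326 higher, 523 lower), beside the 2 members. Each alternative was compared with the fit reported, not with the other alternatives. Of 1210 member values under alternatives, 114 changed sign without being past the threshold in either fit, and 0 reversed among those past it. Only *OPI3* in *ptc1 ptc6* was past it in the fit reported, and 10 values were past it only in an alternative. A reversal could be counted for these alone, so most of the 1210 values could not reverse by this rule.

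In *ptc6*, without a replicate, the sterol median of 0.05 ranged from -0.01 to 0.13, the fatty acid median of -0.03 from -0.15 to 0.13 and the phospholipid median of 0.29 from 0.10 to 0.65. Medians in *ptc1 ptc6* moved as follows. The sterol median of -0.09 became -0.0276 after centring, -0.0117 after scaling, -0.13 in Cy3, -0.084 in Cy5 (without *ERG4*) and -0.0688 to -0.0295 without a replicate. The fatty acid median of -0.20 became -0.14 after centring, -0.11 after scaling, -0.10 in Cy3 and -0.28 in Cy5. The phospholipid median of 0.04 became 0.0981 after centring, 0.0829 after scaling, 0.57 in Cy3 and 0.075 in Cy5. The causes were not tested, and only 2 replicates a mutant limit all of these.

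Over all genes, calls in *ptc1 ptc6* numbered 649 (259 higher, 390 lower), 567 after centring (303 higher, 264 lower), 17 after scaling, 415 in Cy3, 885 in Cy5, 1351 with the random effect (within-replicate correlation -0.0945), 365 without its replicate 1 and 76 without its replicate 2. Calls in *ptc6* went from 0 to at most 11, and those for the difference, 9 in the fit reported, ranged from 0 without *ptc6* replicate 2 to 749 with the random effect. The replicate numbers share only a number between the mutants. With a replicate block, 0, 1 and 0 members were called in *ptc6*, *ptc1 ptc6* and the difference, and 11, 782 and 268 of 4361 genes. A crossed pairing, chosen after seeing the data because the replicate deviations correlated at -0.209, gave 0, 2 and 0 members and 1, 1052 and 482 genes.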
